A study of Homo sapiens with 10 samples.

Results

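This report describes 5993 unnamed loci that had RNA in the chromatin pellet and an FPKM of 0 in the soluble part of the nucleus. They were chosen by the deposited values themselves. A member had an identifier without a gene symbol, a completed test, an FPKM of 0 in the soluble nuclear extract (SNE) and an FPKM of at least 1 in the chromatin pellet extract (CPE). FPKM is the number of sequenced fragments scaled by transcript length and by library size. The members were 5993 of 174660 unnamed tested loci, and of 241080 loci in all. Because both values chose them, their difference between SNE and CPE is a description and was not tested. RNA came from HEK293 cells, an adherent line from human embryonic kidney, whose nuclei were split into SNE (3 samples) and CPE (3 samples) without any added agent named in the labels, as biological replicates. A further 2 CPE samples had DRB, a compound that blocks elongating RNA polymerase II, and 2 were their mock samples. Neither group is in the table analysed here. The table gives 1 FPKM value for SNE and 1 for CPE over the replicates. As a bulk measurement it cannot tell apart a transcript made in few cells and one made at a low level in all.

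RNA that is still being made is held to chromatin by the polymerase, and introns that are not yet removed are held with it. Finished, spliced messenger RNA leaves the gene and moves through the soluble nucleus to the cytoplasm. A chromatin pellet therefore samples intronic and intergenic transcription that is thinly covered in other fractions, and very long genes carry the most intronic RNA. Unnamed loci are stretches of transcript that a pipeline lists without assigning them to a gene. Their definition is not given in the sources used here.

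Known RNAs were separated between the fractions. Of 5 RNAs listed as retained on chromatin, 4 were called higher in the pellet by the authors' deposited table (NEAT1, MALAT1, FTX and KCNQ1OT1) and PVT1 was not called. Of 5 messenger RNAs listed as released, the 3 tested (GAPDH, RPLP0 and TUBB) were called lower in CPE. ACTB had no row of its own. EEF1A1 exceeded the authors' data limit and was listed at 0 in SNE and 152.8 in CPE without a test. Of 9 markers of the HEK293 line, 6 were tested and 5 had an FPKM of at least 1 (KRT8, VIM, LIN28B, CDH2 and EPCAM), NEFL and NEFM were not tested and PAX2 was under 1. Of 12 markers of blood, vessel, liver and connective tissue cells, HBA1 and COL1A1 reached an FPKM of 1. HBA1 was called lower in CPE, and ALB, at 0 in SNE and 0.373 in CPE, was called higher. Over all tested loci, 8.73% were called higher in CPE, meaning a q of at most 0.05 in the authors' deposited table.

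Members were low in abundance, with a short tail of high values. CPE FPKM had a median of 1.76 and a 90th percentile of 5.00, and the highest value was 473.9. Of the 5993 members, 3453 (57.6%) were below 2, 144 were at 10 or more, 35 at 30 or more and 9 at 100 or more. The 85041 unnamed tested loci with CPE FPKM of at least 1 and a value above 0 in SNE had a median of 2.09, with 47.6% below 2. Just inside the minimum lay CLOC_127677, CLOC_171702 and CLOC_095633 at 1.00005, 1.00009 and 1.00025. Just outside it lay CLOC_005368, CLOC_094721 and CLOC_179385 at 0.999961, 0.999924 and 0.999828. On the SNE side the nearest loci outside the rule were CLOC_109962, CLOC_145892 and CLOC_091246, with SNE values of 0.000157, 0.000625 and 0.000781.

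**Figure D1:**
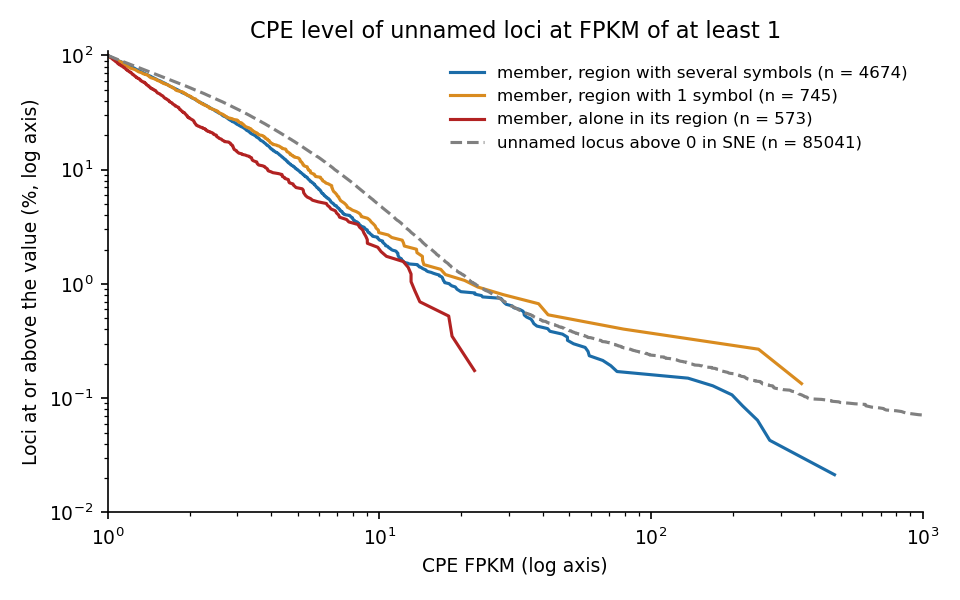
Share of loci (%, log axis) at or above each CPE FPKM (log axis) for members in regions with several symbols, members in regions with 1 symbol, members alone in their region and, dashed, unnamed loci above 0 in SNE. Members alone in their region end at 22.4, while those that share a region with genes reach 473.9. The dashed line continues beyond the right edge.

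Most members lay among genes. Positions in the table are those of a region (build hg19) that can hold many loci, so a locus that shares a region has no position of its own. By region, 4674 members (78.0%) shared it with several loci that carry a symbol, 745 (12.4%) with 1, and 573 (9.56%) were the only locus of their region. The remaining member, CLOC_063270 (CPE FPKM 1.02, region chr16:72324993-72402713), shared its region with 15 other unnamed loci and no symbol. Among unnamed loci above 0 in SNE, 79.0% shared a region with several symbols, 17.9% with 1, and 2.97% were alone. Loci alone in a region thus made up a larger share of the members, a difference described here without a test.

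The 10 members of highest CPE FPKM all shared a region with a gene, and several of these genes belong to duplicated families. CLOC_119205, the highest at 473.9, lay at chr3:186499433-186545274 with EIF4A2, which encodes an RNA helicase of translation initiation and carries small nucleolar RNAs in its introns. The row that joins EIF4A2 with SNORA4, SNORA63, SNORA81 and SNORD2 rose from an FPKM of 3449.73 (SNE) to 108633 (CPE), a log2 ratio of 4.98 (q = 0.000706 in the authors' deposited table). The same region held RFC4, a subunit of the clamp loader of DNA replication, at 110.1 in SNE and 51.2 in CPE. CLOC_065643 (358.4, chr17:44450221-44564507) shared its region with NSFP1, a pseudogene of the membrane fusion factor NSF, listed at 0.868 (SNE) and 1.10 (CPE). The FPKM of that member was far above that of the gene it lay with, but its own length and fragment number were not known.

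CLOC_056353 (273.7) and CLOC_056351 (136.8) lay in 1 region, chr15:34671269-34880704, with the golgin genes GOLGA8A and GOLGA8B, whose joint row had 9.16 in SNE and 13.8 in CPE. CLOC_083034 (248.8) and CLOC_083017 (79.2) lay at chr2:97779233-97930258 with ANKRD36, an ankyrin repeat gene with near copies on the same chromosome. ANKRD36 had an FPKM of 3.02 (SNE) and 12.2 (CPE), a log2 ratio of 2.02 (q = 0.000706 in the authors' deposited table). CLOC_036847 (198.7, chr12:9570309-9600825) lay with DDX12P, a helicase pseudogene at 1.68 in SNE and 3.00 in CPE. The sources used here do not say how fragments were shared between near-identical copies. The values of NSFP1, GOLGA8A, GOLGA8B, ANKRD36 and DDX12P and of the members beside them are therefore uncertain.

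Whether the region of CLOC_119205 or those of the other 3 of these 10 hold duplicated sequence was not examined, so their values may be uncertain as well. All 10 shared a region, so the length and fragment number behind their values were not known. CLOC_044454 (246.6, chr13:37414789-37496228) shared its region with SMAD9, a transducer of bone morphogenetic protein signals, which was lower in CPE, at 8.86 in SNE and 2.58 in CPE (q = 0.00760 in the authors' deposited table). CLOC_062638 (217.5, chr16:30234230-30346695) lay with the joint row of RP11-347C12.1 and RP11-347C12.2, at 0.328 in SNE and 1.34 in CPE. CLOC_050298 (168.9, chr14:31343697-31677010) lay with COCH, which encodes the extracellular protein cochlin and had 165.6 in SNE and 53.1 in CPE. None of these 10 members was called by the authors' test, with p between 0.0920 and 0.226 in the authors' deposited table. The 10 highest members thus had no call among them.

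The members that shared a region were spread over many regions, and the 10 regions with most members each held a very long gene. The 5420 members that shared a region lay in 2085 of the 9119 shared regions that held an unnamed locus at CPE FPKM of at least 1. In 1087 of them there was 1 member and in 75 there were 10 or more, and those 75 held 1075 members (19.8%). The region with most, chr3:115521235-117716439, held 32 members of 65 unnamed loci at CPE FPKM of at least 1 (49.2%). It contains LSAMP, a neuronal cell adhesion gene of 1337 kb in GENCODE. The row that joins LSAMP with RP11-384F7.2 had an FPKM of 2.05 (SNE) and 2.20 (CPE). The 32 members ranged from 1.00 to 17.1 in CPE, with a median of 1.63, and the other unnamed loci there had medians of 0.0986 in SNE and 1.42 in CPE.

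The next regions were those of PARD3B, a cell polarity gene (27 members of 180, chr2:205410368-206484886), TBC1D5, a regulator of membrane trafficking (23 of 117, chr3:17197994-18959184), and LRP1B, a lipoprotein receptor family gene (22 of 91, chr2:140988992-142895399). MAGI2, a synaptic scaffold gene, had 21 of 82 (chr7:77646229-79101135). MACROD2, which encodes an ADP-ribose hydrolase, had 20 of 46 (chr20:13829893-16033842), and RBMS3, an RNA-binding protein gene, 20 of 91 (chr3:29305685-30051980). PRKG1, a cyclic GMP-dependent kinase gene, had 19 of 138 (chr10:52750689-54073888), GPC6, a glypican, 19 of 195 (chr13:93879005-95059663), and ZBTB20, a transcriptional repressor, 19 of 48 (chr3:114056941-114866118). These 10 regions were 746.3 to 2204 kb long. The member share among their unnamed loci ranged from 9.74% at GPC6 to 49.2% at LSAMP. These regions were picked for their number of members, and over all unnamed loci at CPE FPKM of at least 1 the share was 6.58%.

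Each of these 10 regions, which held 2 to 20 loci with a symbol, was named by its longest gene in GENCODE. The rows of these named genes were themselves not called. Their log2 ratios of CPE over SNE ran from -1.24 at GPC6 to 2.40 at LRP1B, with q between 0.418 and 0.931 in the authors' deposited table. LRP1B, in a row joined with AC078882.1, had 1.21 in SNE and 6.36 in CPE, and MAGI2 had 0.322 and 0.964. TBC1D5, in a row joined with SATB1, was the highest in level, at 22.4 in SNE and 15.7 in CPE. The unnamed loci above 0 in SNE in these regions had median SNE values of 0.0801 to 0.145. The members' neighbours in the same regions were thus themselves close to 0 in SNE. Such values were common everywhere: of all 174660 unnamed tested loci, 45.2% were below 0.1 in SNE and 70.6% below 0.25.

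Across all shared regions the share at 0 in SNE rose with region length. Among unnamed loci at CPE FPKM of at least 1, it was 1.83% in regions up to 49.3 kb (201 of 10995) and 12.1% in regions over 542.5 kb (1326 of 10987), and it rose at each of the 8 length classes. The order also held at like CPE levels. Between 1 and 1.5 it was 3.35% in the shortest of 4 length classes and 12.0% in the longest, and at 5 or more it was 1.83% and 7.96%. By the length of the longest gene of the region in GENCODE, found for 98.1% of these loci, the share was 3.26% below 20 kb (184 of 5640), 2.08% at 20 to 50 kb, and higher in each longer class, up to 15.1% at 800 kb or more (590 of 3908). The class of 200 to 400 kb held the most members, 1653. Among the chromosomes that held members, the lowest share was 1.94% on chromosome 19, where the median region was 50164 bases long, and the highest 9.67% on chromosome 4, where it was 214942 bases.

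**Figure D2:**
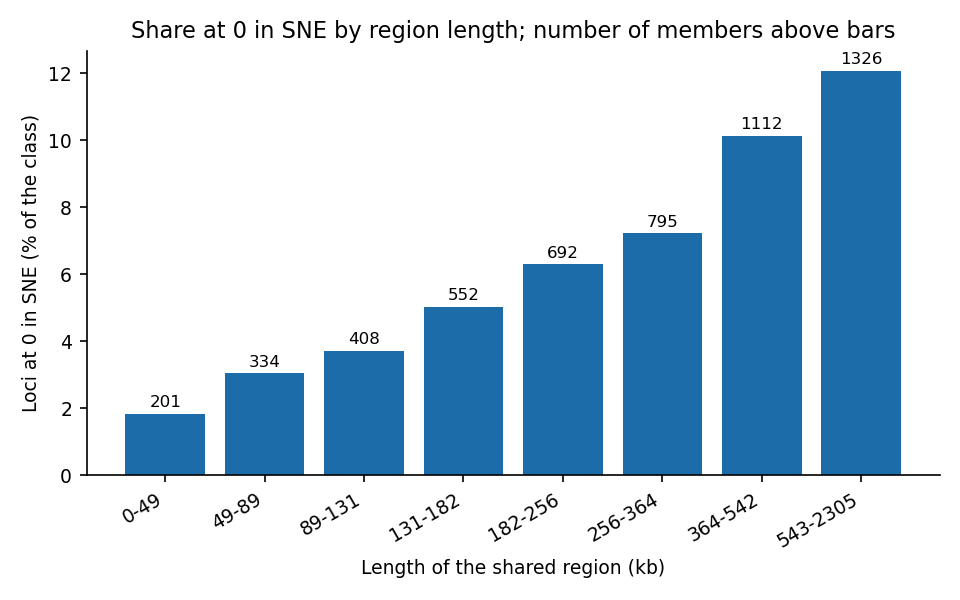
Share of unnamed loci with CPE FPKM of at least 1 that were at 0 in SNE (%), by length of the region they share with other loci (kb), in 8 classes of near equal number. The share rises from 1.83% to 12.1%, and the number above each bar is that of members.

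The level of the gene in the region moved with the share as well. Where the leading gene, the tested symbol locus of highest mean FPKM, was below 1 in SNE, 14.7% of the unnamed loci were members (360 of 2448), and where it was above 30, 3.35% were (1184 of 35363). Both relations remained in a cross-classification. In the shortest of the 4 length classes the share was 8.26% with a leading gene below 1 and 1.09% above 30, and in the longest it was 19.5% and 7.50%. The part of SNE coverage in these shares was not tested.

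Genes that shared a region with members were shifted less to SNE than genes of other regions, a difference described without a test. In regions with several symbols the leading gene had a median log2 ratio of -1.03 over 1672 regions with a member (interquartile range -1.68 to -0.30) and -1.44 over 4047 regions with unnamed loci at CPE FPKM of at least 1 and no member. In the authors' deposited table, 584 of the 1672 genes (34.9%) were lower in CPE and 32 higher, against 2484 (61.4%) and 60 of the 4047. In regions with 1 symbol the medians were -1.26 over 369 genes and -1.59 over 2545, with 43.6% and 65.5% called lower in CPE. The genes beside members were longer, at a median of 138.8 kb against 35.4 kb for several symbols, among the 80.4% and 77.9% with a length in GENCODE. Their median SNE FPKM was lower, 13.6 against 27.5. The part of gene length and level in these ratios was not tested.

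Members alone in their region were very short. Their 573 regions had a median of 286 bases (124 to 671), against 343 for the 2523 unnamed loci alone in a region, at CPE FPKM of at least 1 and above 0 in SNE. Their CPE FPKM had a median of 1.48 and a maximum of 22.4. The highest values belonged to the shortest regions. CLOC_154458, at 22.4, spans chr7:30202875-30203010, 136 bases, and lies 51 bases from the ribosomal protein pseudogene RPS27P16. CLOC_123272, at 18.5, spans 124 bases at chr4:120226995-120227118, and CLOC_144734, at 17.998, spans 129 bases at chr6:126853360-126853488.

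**Figure D3:**
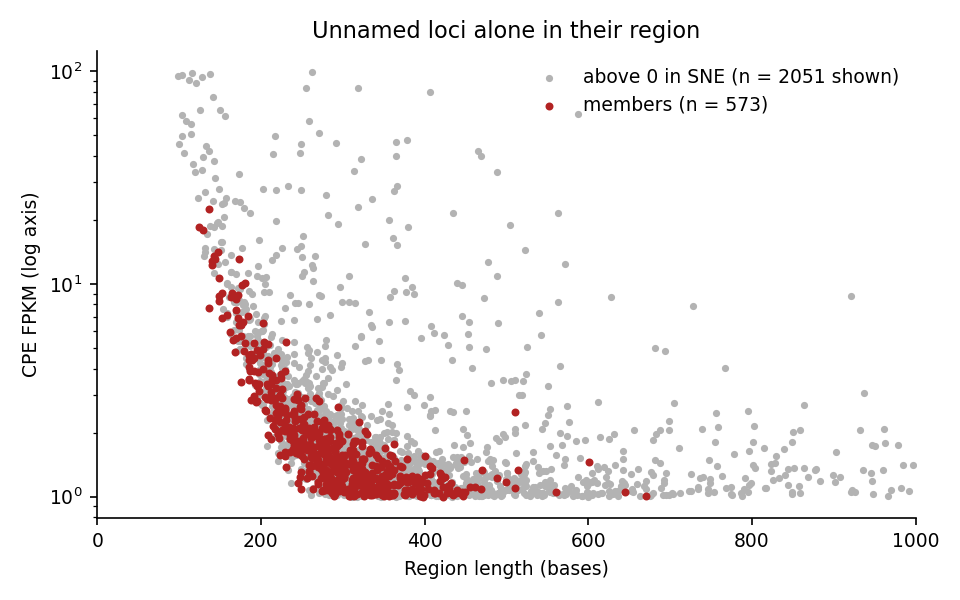
CPE FPKM (log axis) against region length (bases) of unnamed loci alone in their region, members in red and loci above 0 in SNE in grey (2051 with up to 1000 bases and an FPKM of up to 100; 472 others not shown). Members run along the lower edge of the cloud, from 22.4 at 136 bases to about 1.0 at over 300 bases.

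Whole fragments could be recovered behind these FPKM values. At loci alone in a region the deposited values were sums of whole multiples of 3 base values per group, after division by an effective length (the number of places a fragment can start). That length assumed fragments of mean 200 and SD 80 bases, a default of the Cufflinks software, between 48 and 440 bases. The shortest length of 48 was chosen as the one at which most values recurred. Fragment lengths of these libraries were not measured. Of 8047 CPE values of up to 60 fragments, 8038 fell on exactly 1 combination of whole numbers within the rounding of 6 digits, 9 on several and 0 on none. Of 10521 SNE values, 10515 had 1 combination, 1 several and 5 none. The 3 base values are taken as the 3 libraries of a group, here called a, b and c, since they could not be tied to replicate numbers. This is inferred from the values and not stated by the authors. If a group's FPKM is the mean of its libraries, their scaled sizes were 51000000, 45000000 and 42300000 fragments in SNE and 59700000, 46400000 and 42000000 in CPE.

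Behind the FPKM of the members alone in their region stood few fragments. In 569 of the 573, small enough to resolve, the 3 CPE libraries together held 9 to 60 fragments, with a median of 20. At 300 bases 1 fragment was worth an FPKM of 0.0559 to 0.0795 in CPE, and at 150 bases 0.575 to 0.818, so short regions had high values from the same number of fragments. Fragments were present in all 3 CPE libraries at 521 members (91.6%), in 2 libraries at 46 and in 1 library at 2. Of the 12385 fragments, 40.02% came from CPE library a, 33.4% from b and 26.6% from c, against 40.3%, 31.3% and 28.3% by the scaled sizes. As a set, the members drew on all 3 CPE libraries, each close to its share by size.

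Single members were less even. At CLOC_154458 the 22 fragments were 8, 10 and 4 in CPE libraries a, b and c. CLOC_123272, which lies 1.29 kb from C4orf3, had 10, 4 and 0. CLOC_144734, 47.5 kb from the microRNA gene MIR588, had 3, 10 and 1. In each of these 3 members the largest library held 10 fragments. CLOC_176981 (chr9:6008531-6008703), 51 bases from RANBP6, an importin-like gene, had an FPKM of 13.1 and was the most even of the group, with 12, 11 and 9.

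CLOC_069486 (14.1, chr17:47664271-47664418), 3.08 kb from the neurexophilin gene NXPH3, had 2, 11 and 5. CLOC_179262 (13.5, chr9:100614284-100614426), 1.11 kb from FOXE1, a forkhead transcription factor gene, had 4, 1 and 10. CLOC_089143 (13.1, chr2:23958373-23958516), 11.6 kb from ATAD2B, had 1, 11 and 3. No library was the largest in all of these. CLOC_133272 (12.8, chr5:103477857-103477996), 36.8 kb from the small nuclear RNA pseudogene RNU1-140P, had 10, 1 and 4, and CLOC_182945 (12.2, X:106042413-106042552), 2.02 kb from RNF128, had 2, 10 and 1.

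**Figure D4:**
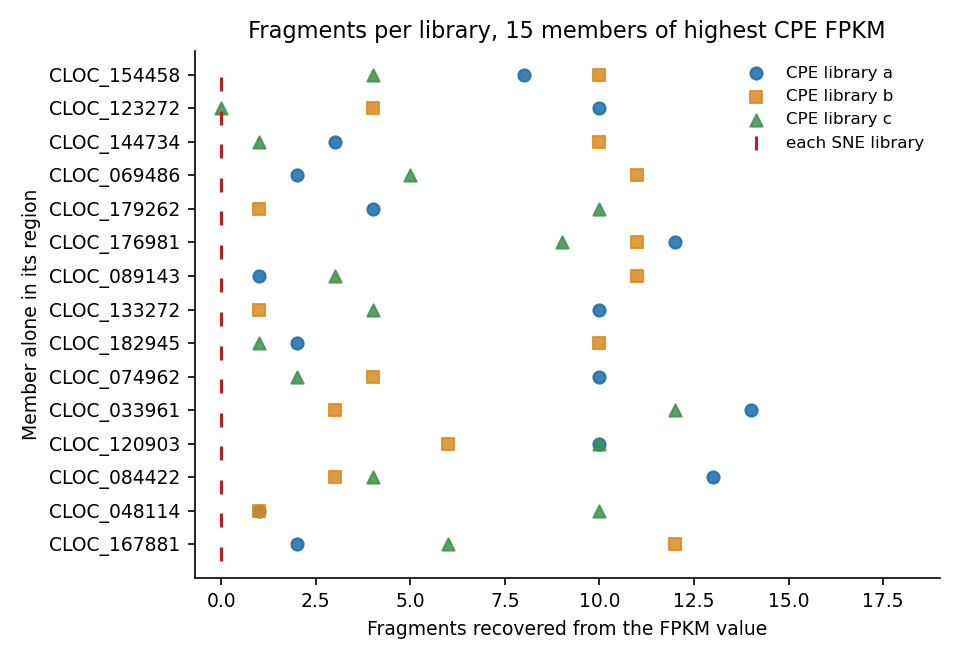
Fragments recovered in each CPE library (blue circle a, orange square b, green triangle c) and in each SNE library (red stroke, all at 0) for the 15 members alone in their region of highest CPE FPKM, ordered from the top. The largest library holds 10 to 14 fragments in each, and the libraries that hold it differ.

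More than 50% of the fragments came from 1 CPE library at 381 of the 569 members (67.0%). At 16 to 26 fragments the share was 73.2% of 317 members and 65.2% of 856 loci above 0 in SNE. The largest library held at least 10 fragments at 559 members (98.2%) and exactly 10 at 199 (35.0%). Over all 7963 unnamed tested loci alone in a region and resolved in both groups, the largest CPE library held at least 10 at 97.9%, while the largest SNE library did at 4.57%. The largest CPE library held exactly 10 at 16.5% of them. Nearly all these tested loci therefore had 10 fragments in a CPE library, whatever their SNE value, and members, at 0 in SNE, could reach it only in CPE. Of 285 resolved unnamed loci alone in a region that were left untested, 224 (78.6%) also had at least 10 fragments in their largest library. The part of this level of 10 fragments in the number of members was not tested.

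Low counts in SNE led up to the count at 0 without a gap. Of unnamed tested loci alone in a region of up to 3000 bases, with CPE FPKM of at least 1, 573 had 0 fragments in SNE, 421 had 1, 314 had 2, 198 had 3 and 144 had 4. Were the number at 0 to exceed that at 1 by the ratio of those at 1 to those at 2, 564 would be at 0. The lower limit of Chao for an unseen class, which is 0.5 times that value, gives 282. Whatever the CPE value, 1706 were at 0, 1595 at 1 and 1205 at 2, and the same extensions gave 2111 and 1056. The 573 members alone in their region lay just above the steady extension, and the 1706 loci lay between the lower and the steady one. The match differed by region length. Up to 200 bases, where the highest of these members lie, 60 were at 0 and the steady extension gave 35.6. At 200 to 250 bases 105 were at 0 against 86.2, at 250 to 300 bases 170 against 165.0, and at 300 to 350 bases 124 against 157.4. The 3 longer classes were also below the steady extension, with 69 against 76.7, 38 against 38.4 and 7 against 15.04.

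**Figure D5:**
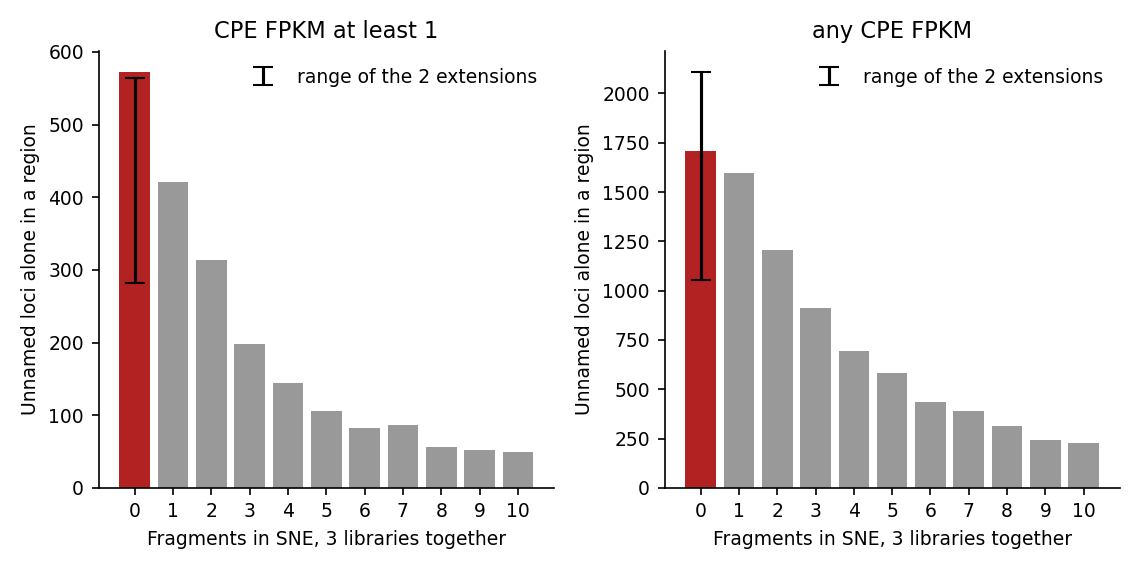
Number of unnamed loci alone in a region by fragments in the 3 SNE libraries together, for CPE FPKM of at least 1 (left) and for any CPE FPKM (right), with loci at 0 in red. The black bar spans the lower and the steady extension of the counts at 1 and 2 fragments, 282 to 564 on the left and 1056 to 2111 on the right.

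The share at 0 in SNE fell as CPE fragments rose. Among these loci at CPE FPKM of at least 1 it was 44.1% below 15 CPE fragments (127 of 288), 28.97% at 15 to 20, 20.8% at 30 to 40, 5.84% at 40 to 60 and 1.65% at 60 to 100 (3 of 182). At 100 or more fragments 1 of 467 loci was at 0. A count of 0 in SNE allows up to 3 fragments over the group, which at the members alone in their region were worth an SNE FPKM of 0.0468 to 4.78, with a median of 0.249. At CLOC_154458 they were worth 3.30. These limits cover counting error only, and no fold is given, since the rule set both values.

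Over all unnamed tested loci the same fall was seen by level. The share at 0 in SNE was 8.03% at CPE FPKM of 1 to 1.5, 6.54% at 2 to 3, 4.29% at 5 to 10 and 2.93% at 10 to 30. It was 5.86% at 30 or more (35 of 597 loci). At CPE FPKM of at least 1, SNE values just above 0 were rare in both kinds of region. In shared regions 5420 loci were at 0, 18 above 0 and up to 0.01, 171 up to 0.02 and 2985 up to 0.05. Of loci alone in a region, 573 were at 0, and 3, 16 and 161 lay in the same classes. There the values go in steps of whole fragments. In a region of 300 bases 1 fragment was worth an SNE FPKM of 0.0655 to 0.0789, so these classes lay below 1 fragment at that length. Of the loci alone in a region with recovered fragments, 421 had 1 SNE fragment. Outside loci alone in a region, fragments could not be recovered, so the count expected at 0 was not computed there.

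The reverse pattern hardly occurred, and the table holds few loci that could show it. At an FPKM of 0 in CPE and at least 1 in SNE stood 1 of 14279 unnamed tested loci, CLOC_090020, at 1.14 in SNE (chr2:50145643-51259674, q = 0.424 in the authors' deposited table). Members were 6.58% of 91034 by the same measure. Only 9 of 174660 unnamed tested loci had a CPE FPKM below 0.1, while 78941 had an SNE FPKM below 0.1. Among tested loci with a symbol, 302 of 12237 (2.47%) were at 0 in SNE with at least 1 in CPE, and 35 of 13199 (0.265%) were the other way round. Since unnamed loci with low CPE values are nearly missing from the table, the 1 reverse locus is not a like reference for the members.

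The authors' calls split the members by region type. In the authors' deposited table all 573 members alone in their region were called higher in CPE, 568 of them at the smallest p of the table (5e-05, q = 0.000706) and none above p = 0.0006. Of the 5420 that shared a region, 2 were called, and their median p was 0.169. Among unnamed loci above 0 in SNE with CPE FPKM of at least 1, 28.7% of those alone and 11.5% of those sharing a region were called higher in CPE. Below the minimum the split was the same: whatever the CPE value, all 1706 loci alone in a region at 0 in SNE were called, and 15 of 11954 sharing a region. The rule used this contrast, so nothing is read from these counts about the members. The deposited log2 ratio was infinite for 5981 members and finite, at 3.91 to 6.32, for 12 in 5 regions, where it implies SNE values of 0.0398 to 0.365 in place of the listed 0.

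The 2 called members that shared a region were CLOC_083311 and CLOC_163480. CLOC_083311 (1.73, chr2:103489798-103512182, p = 0.001 and q = 0.0103 in the authors' deposited table) lay with the untested row AC007251.2. CLOC_163480, at a CPE FPKM of 18.5 (p = 5e-05 in the authors' deposited table), lay in a region of 323 bases, chr7:129414532-129414854, whose only other rows are the microRNA genes MIR96 and MIR183. Both microRNA rows were untested and listed at 0 in SNE and CPE. The 2 microRNAs are made from 1 primary transcript that is cut in the nucleus, and they are known for their role in sensory cells. CLOC_163480 was the only called member that shared its region with microRNA genes. Their mature 5p strands from RefSeq (GRCh38.p14) are therefore shown, with the seed (bases 2 to 8) in capitals.
hsa-miR-183-5p: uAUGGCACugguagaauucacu
hsa-miR-96-5p: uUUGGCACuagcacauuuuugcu
The seeds differ, and a library of total RNA does not measure mature microRNAs in this table. Whether the member covers the hairpins was not tested, since only the region is given.

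Members without a symbol in their region mostly lay close to a region with a symbol, though farther than other such loci. The nearest region with a symbol was a median of 5.29 kb away from the 574 members (interquartile range 1.31 to 24.0 kb), and 334 (58.2%) were within 10 kb, 207 at 10 to 100 kb and 33 (5.75%) beyond 100 kb. For 2592 loci above 0 in SNE the median was 2.16 kb, and 72.4% were within 10 kb. A symbol here can belong to an untested row. To the nearest region with a tested gene at FPKM of at least 1, the median was 12.8 kb for the 574 members and 4.45 kb for 2591 loci above 0 in SNE. Beyond 100 kb from such a gene lay 140 members (24.4%) and 13.3% of the loci above 0 in SNE. The share at 0 in SNE was 14.9% of loci within 5 kb of a region with a symbol (281 of 1888) and 32.9% at 50 to 100 kb (53 of 161), then 23.1% at 100 to 200 kb (15 of 65). Median SNE FPKM over these classes was 0.268, 0.0670 and 0.0813, while median region length was 335, 326 and 309 bases. Loci farther from a region with a symbol were thus lower in SNE at like lengths.

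The nearest genes were mostly protein-coding where they could be examined. Of the 574 members, 372 had a tested gene in the nearest region. Of these, 251 (67.5%) had a protein-coding leading gene in GENCODE, 8 a long non-coding RNA and 21 a pseudogene. All these counts are of members, so a gene near several members was counted for each of them. Counted so, the genes had median FPKM values of 13.5 (SNE) and 6.89 (CPE), with a median log2 ratio of -1.11. The gene was lower in CPE at 150 members (40.3%), higher at 13 and not called at 209 in the authors' deposited table. Beside loci above 0 in SNE, counted in the same way, the median ratio was -1.19, and the gene was lower in CPE at 46.4% of them. Over all 13711 tested symbol loci that reached an FPKM of 1 in SNE or CPE it was -1.37, with 49.0% lower in CPE. Examples on either side are C4orf3, near CLOC_123272, at 24.1 in SNE and 1.82 in CPE, and ATAD2B, a bromodomain gene near CLOC_089143, at 9.06 and 11.4.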

How the data were processed

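Stranded total RNA libraries of 3 SNE and 3 CPE samples were processed with TopHat2 and Cuffdiff against hg19 (submitters' processing notes). The sources used here name no versions, parameters, annotation or scaling. The deposited gene table, per the file headers a table of Cuffdiff differences, holds 1 FPKM per group that the authors computed over the replicates. It also holds the authors' log2 ratio, and their p-value and q-value. The deposited test statistic, an unscaled score, and a deposited isoform table were not used. Of 241080 loci, 192931 were tested, 34611 had too few reads, 8580 low data, 4921 exceeded the authors' data limit and 37 failed.

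Members, lists and alternatives were chosen with earlier results of these data known. Starts are counted from 1. A called locus had q of at most 0.05. Gene type and length came from GENCODE 29 by symbol. Whole fragments were recovered from FPKM at loci alone in a region of up to 3000 bases, a procedure tested on simulated data. No test across libraries was run, since the rule had used this contrast and fragments were recovered only at loci alone in a region, and none was built over loci. Members named are the 10 of highest CPE FPKM, the 3 highest of each region type, the 10 highest called and those nearest the minimum. Genes named are those in or nearest to them and the longest gene in GENCODE of each of the 10 regions with most members. CLOC_083311 was named after its values were seen. Python 3.11.15, pandas 2.3.3, numpy 2.4.6, scipy 1.17.1 and matplotlib 3.10.9 were used.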

Additional observations from a re-analysis of the deposited data

How the results depend on the processing

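With minimum CPE FPKM values of 0.5, 2 and 5, in that order, there were 11841, 2540 and 601 members, of which 1458, 162 and 40 were called. Their median CPE FPKM was 1.01, 3.28 and 6.84, the share of loci at 0 in SNE 7.404%, 5.40% and 4.02%, and the share of members without a symbol in their region 12.3%, 6.34% and 6.49%. The median region length of members alone was 376, 213 and 169 bases, and the number of reverse loci 3, 0 and 0. A gene ratio over all members took the leading gene of their own region, or of the nearest region where their own held no symbol. With each region entered without repeats, its median log2 value was -1.17, -1.005 and -0.991, against -1.105 in the main setting. The distance to the nearest region with a symbol moved at a minimum of 2, to 7.13 kb. Members alone in their region numbered 1447, 161 and 39, with fragments in all 3 CPE libraries at 1340, 137 and 33. With SNE FPKM of at most 0.1 there were 20927 members, 1787 of them called, with a median of 1.34, 23.0% of loci within the limit, 5.63% without a symbol, a gene ratio of -1.23 and a length of 334.5 bases. With SNE FPKM of at most 0.01 there were 6014 members. With every status but exceeded limit and failure, the reverse loci numbered 6. With neighbours limited to tested genes at FPKM of at least 1, 13.3% of members had none in their region and the distance was 21.1 kb, and within 10 kb only it was 1.73 kb. No result reversed. Alternatives on recovered libraries and on members alone, and the removal of the 12 members with a finite ratio (leaving 5981), were chosen after seeing the data. Leaving out each recovered library in turn gave 542 to 824 members alone in their region, a median CPE FPKM of 1.43 to 1.53 and a median length of 290 to 304 bases. Without 1 CPE library, 77.0% to 85.2% of the 573 remained members. The 4 members over 60 fragments did not enter these counts. No paired analysis was possible because the table holds 1 value per group and the recovered libraries carry no replicate numbers.

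At the shortest regions 3 fragments were worth an FPKM of up to 4.78. In shared regions no fragment counts were recovered, so the depth behind those values was not known.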
